A study of Homo sapiens with 6 samples.

Results

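The 55 protein-coding keratin genes (KRT followed by a number) were taken by symbol and biotype from the 58735 genes of the deposited table. Keratins are the intermediate filament proteins of epithelial cells. Each filament is built from paired type I and type II keratins, so a cell that makes a filament makes members of both types. Simple keratins such as KRT8 and KRT18 belong to single-layered epithelia, the lining of the stomach included. Stratified keratins belong to multilayered epithelia such as epidermis and oral mucosa, and further keratins are made in the root sheath and shaft of hair. By their known tissue, 5 of the 55 genes were grouped as simple, 20 as stratified, 9 as root sheath, 17 as hair and 4 as other keratins. The type II genes and KRT18 lie together on chromosome 12 (27 genes), and the other type I genes on chromosome 17 (28 genes).

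HGC-27 is a line of undifferentiated gastric carcinoma cells, with the genotype given as WT in all samples. Cells with the vector pSIH-H1-Puro-shACAT2, which makes a short hairpin RNA against ACAT2 (shACAT2), were compared with cells carrying the control vector pSIH-H1-Puro-shNC (shNC), with 3 libraries of total RNA in each group. Both groups were exposed to their vector for 24 h and then kept in puromycin for 7 days, and the labels do not say which hairpin against ACAT2 was used. All comparisons asked which genes differed in shACAT2 cells, with shNC cells as the reference. Values are in FPKM, fragments per kilobase of a gene, scaled to the library, and are listed in the order of replicates 1, 2 and 3. Each library had 14086416 to 16067486 fragments on genes. ACAT2, the targeted gene, was lower in shACAT2 cells by 1.01 on the scale of log2(FPKM + 1) (standard error 0.10, limma adjusted p = 0.0059), and this call was lost without shNC-3 (adjusted p = 0.051). The ACAT2 exons share 1141 bases with SOD2 and 397 bases with TCP1 on the opposite strand. Of 6 epithelial marker genes, EPCAM stayed at or below 0.212 FPKM in every library, and the summed level was 1.67 to 1.91 FPKM in shNC cells and 2.04 to 2.50 FPKM in shACAT2 cells. VIM, the intermediate filament protein of mesenchymal cells, was at 246 to 461 FPKM. The other mesenchymal markers were lower, with ZEB1 at 3.66 to 6.51 FPKM, FN1 at 1.81 to 2.42 FPKM and CDH2 at most 0.0808 FPKM. The gastric markers TFF1, GKN1 and PGC were at 0 in all libraries. MUC5AC had at most 2 fragments in a library, and MUC6 had 6 to 15 fragments (at most 0.119 FPKM). None of the 6 epithelial markers exceeded 1.16 FPKM (CLDN7 in shACAT2-2). By these marker lists, the epithelial and gastric sides of the label were thus hardly visible in the RNA. Cadherins of desmosomes outside the lists were mixed. DSG2 was at 7.30 to 20.4 FPKM, DSC1 at 3.67 to 6.97 FPKM and DSC2 at 1.80 to 3.00 FPKM, while DSG1, DSG4 and DSC3 were at most 0.0919 FPKM. The sum of the squamous markers, of which KRT5 and KRT14 are members, was 0.115 to 0.425 FPKM, and PTPRC, a marker of blood cells, was at most 0.0727 FPKM.

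The library shACAT2-3 stood apart. It held 7477 genes with a fragment in no other library, against 416 to 657 such genes in each of the other 5. Over autosomal genes without a fragment in the other libraries it had 0.778 fragments per kilobase, where the other libraries, scored in the same way, had 0.0508 to 0.0809. For KRT4, KRT10, KRT80, KRT8 and the sums of keratins, values without shACAT2-3 are therefore given as well. The labels do not say whether the 3 libraries of a group came from separate cultures, although the series text calls them biological replicates, so p-values measure the spread between these libraries, which may be technical.

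KRT4 was the keratin that rose. KRT4 is a type II keratin of the stratified epithelia that line the mouth and oesophagus, where it pairs with KRT13. KRT10, a type I keratin of the upper layers of the epidermis, was the highest keratin of both groups by FPKM and did not pass the test. The sequences before their start sites are shown because these stratified keratins had the highest levels of the family while most of their neighbours were close to 0. The 250 bases before each RefSeq start site are printed in the direction of the gene (RefSeq, GRCh38.p14, both on the minus strand), KRT4 from chr12:52814117-52814366 and KRT10 from chr17:40822615-40822864. The KRT4 stretch lies inside the gene as annotated in the deposited values, which reaches to 52814551, so another start is annotated further upstream. The KRT10 stretch lies before its annotated gene, which reaches to 40822595. The capitals mark the motif TATAA, the core of a TATA box.
KRT4: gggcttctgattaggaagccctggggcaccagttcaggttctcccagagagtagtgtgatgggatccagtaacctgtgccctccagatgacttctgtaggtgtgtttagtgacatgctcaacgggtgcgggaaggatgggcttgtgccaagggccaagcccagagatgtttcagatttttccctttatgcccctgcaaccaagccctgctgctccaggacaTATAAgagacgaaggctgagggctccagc
KRT10: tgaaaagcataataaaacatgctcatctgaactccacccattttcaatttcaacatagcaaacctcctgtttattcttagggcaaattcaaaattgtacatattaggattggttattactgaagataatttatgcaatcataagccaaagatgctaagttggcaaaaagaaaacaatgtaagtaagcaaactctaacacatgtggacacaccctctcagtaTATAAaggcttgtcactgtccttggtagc
In both sequences TATAA begins 29 bases before the start site. The sequence table, which holds 250 bases before to 50 bases after each start, has entries for 34 of the 55 keratins. TATAA in the direction of the gene began 25 to 35 bases before the start in 61.8% of them (21 of 34), and in 4.53% of all genes in the table (1237 of 27305). Anywhere in the window and on either strand, TATAA was found in 73.5% of the keratins and in 24.2% of all genes. The motif CACCC, a core of sites read by KLF factors, was searched on both strands. KRT4 holds it once, on the opposite strand at 128 bases before the start, and KRT10 holds it at 216 and 42 bases before the start. CACCC was found in 82.4% of the keratins and in 63.1% of all genes. These matches describe the letters only, and the entries are not independent, because neighbouring keratins arose by duplication.

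Only 3 of the 55 keratins, KRT4, KRT10 and KRT80, reached a mean of 1 FPKM in shNC or shACAT2 cells and were tested. Among them, 1 was higher in shACAT2 cells (KRT4) and 0 were lower. Of all 13832 genes tested, 3.3% were called higher and 1.81% lower, at a limma adjusted p under 0.05. With the thresholds of an absolute log2 difference above 1 and an unadjusted p under 0.05, KRT4 alone of the 3 was past the thresholds, against 1.5% of all genes tested. At unadjusted p alone, KRT4 and KRT80 were under 0.05. KRT4 and KRT80 passed the filter only through shACAT2 cells, with means of 0.824 and 0.432 FPKM in shNC cells. A keratin that passed in this way had to be higher in shACAT2 cells. Only KRT10 passed in both groups, so these counts describe 3 genes and not the family.

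KRT4 (ENSG00000170477) lies on chromosome 12 from 52806549 to 52814551 on the minus strand of GRCh38. The shNC libraries held 0.829, 0.819 and 0.823 FPKM of KRT4, and the shACAT2 libraries held 7.24, 5.12 and 5.98 FPKM. The shNC libraries lay close together, and every shACAT2 library lay far above them. The means were 0.824 ± 0.00463 and 6.11 ± 1.06 FPKM (SD, n = 3), which is 7.42 times as much FPKM in shACAT2 cells. The log2 difference was 1.95 (standard error 0.13, 95% interval 1.65 to 2.25, limma adjusted p = 0.0020), on the scale of log2(FPKM + 1), which understates the change of low genes. By this difference KRT4 stood at place 4 of the 13832 genes tested, and by its p at place 7 among the higher genes. The groups did not overlap, which was so for 30.7% of all genes tested, and the two-sided exact permutation test gave p = 0.1, the smallest that 3 against 3 libraries allow. KRT4 was singled out with its rise already known, so its p is a description of the size of the change beside its spread. In RNA from whole cultures, more KRT4 RNA per cell and more cells with KRT4 cannot be told apart.

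The rise rested on 133 fragments in the shNC libraries and 943 in the shACAT2 libraries. Counting error alone gave 95% Poisson intervals of 0.597 to 1.12 FPKM for shNC-1 and 4.54 to 5.76 FPKM for shACAT2-2, the lowest shACAT2 library, so even these were apart. The shNC libraries differed among themselves by less than these counting intervals. Without shACAT2-3 the log2 difference was 1.96 (limma adjusted p = 0.0063). At the background rate of shACAT2-3, 2.58 of its 297 fragments of KRT4 would be background. KRT4 shares no exon bases with another annotated gene, and 98.7% of the 31-base words in its transcripts occur in no other gene.

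**Figure D1:**
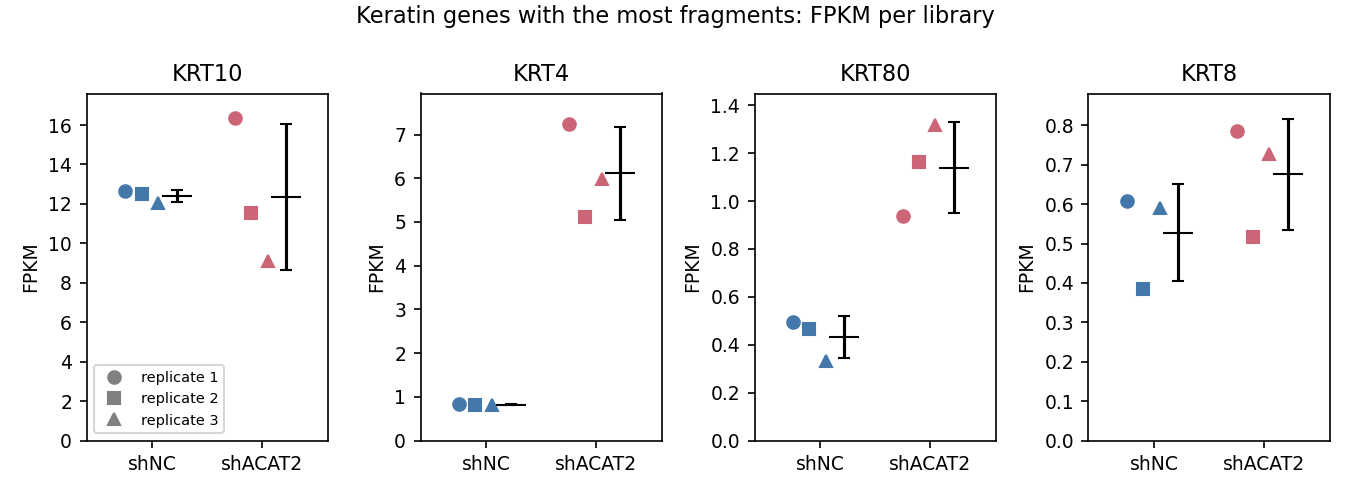
FPKM of KRT10, KRT4, KRT80 and KRT8 (y axis, from 0, a scale for each gene) in shNC and shACAT2 cells (x axis), with each library as a point, its shape giving the replicate number, and a line with bars for the mean and SD of 3 libraries. All shACAT2 values of KRT4 (5.12 to 7.24 FPKM) and KRT80 (0.939 to 1.32 FPKM) lie above those of shNC cells, while the groups overlap for KRT10 and KRT8.

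The genes beside KRT4 in the cluster did not rise to a comparable level. KRT3, a keratin of the cornea, had 0 fragments in shNC cells and 5 in shACAT2 cells, of which 1 lay outside shACAT2-3. KRT79, on the other side, had 0 and 2 fragments, both of them in shACAT2-3. KRT13, the type I partner of KRT4 in mucosa, had 0 fragments in each of 5 libraries and 5 fragments in shACAT2-3. A level of up to 3 fragments per library could have been missed, and the background of shACAT2-3 cannot be told apart from expression at these counts.

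KRT10 (ENSG00000186395) lies on chromosome 17 from 40818117 to 40822595 on the minus strand. The shNC libraries held 12.6, 12.5 and 12.0 FPKM of KRT10, and the shACAT2 libraries held 16.4, 11.5 and 9.11 FPKM. The shACAT2 libraries lay on both sides of the shNC libraries. The means were 12.4 ± 0.316 and 12.3 ± 3.70 FPKM (SD, n = 3), and the log2 difference was −0.04 (standard error 0.19, 95% interval −0.49 to 0.41, limma adjusted p = 0.919). Its sign turned with the scaling, to 0.0020 with upper-quartile scaling, and to 0.14 without shACAT2-3. KRT1, the type II partner of KRT10 in epidermis, had 0 fragments in the shNC libraries and 1, 0 and 2 fragments in the shACAT2 libraries. A stretch of 56 exon bases of KRT10 is shared with TMEM99 on the opposite strand.

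KRT80 (ENSG00000167767), a type II keratin found in many epithelia and close to cell junctions, lies at the start of the cluster on chromosome 12, from 52168996 to 52192000 on the minus strand. The shNC libraries held 0.496, 0.468 and 0.333 FPKM of KRT80, and the shACAT2 libraries held 0.939, 1.16 and 1.32 FPKM. Every shACAT2 value was above every shNC value. The means were 0.432 ± 0.0868 and 1.14 ± 0.190 FPKM (SD, n = 3), from 91 and 232 fragments. The log2 difference was 0.58 (standard error 0.15, 95% interval 0.22 to 0.93), and it missed the threshold (limma adjusted p = 0.077). It passed when a minimum of 10 fragments in every library replaced the filter (adjusted p = 0.0096) and with limma-voom on the fragments (log2 difference 1.34, adjusted p = 0.018). Those settings called 1034 of 14394 and 1006 of 13832 genes, against 706 of 13832 in the main test. Without shACAT2-3 the log2 difference was 0.52 (adjusted p = 0.132).

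KRT8 and KRT18 form the keratin pair of simple epithelia, and KRT8 had fragments in every library while KRT18 did not. KRT8 (ENSG00000170421, chromosome 12, 52897187 to 52949954, minus strand) had 0.608, 0.385 and 0.590 FPKM in the shNC libraries, and 0.785, 0.516 and 0.726 FPKM in the shACAT2 libraries. The groups overlapped, with means of 0.528 ± 0.124 and 0.676 ± 0.141 FPKM (SD, n = 3). KRT8 lay under the filter of the test, and the difference of its mean log2(FPKM + 1) was 0.13 (two-sided exact permutation test, p = 0.3). Between libraries with the same replicate number, KRT8 was higher in the shACAT2 library of 3 of 3 pairs, by 0.15, 0.13 and 0.12 on that scale. The pairing of numbers 2 and 3 is uncertain, and KRT8 in shACAT2-2 (0.516 FPKM) lay below shNC-3 (0.590 FPKM). With the replicate number as a block, among genes with a minimum of 10 fragments in each library, KRT8 missed the threshold (limma adjusted p = 0.161). Without shACAT2-3 the difference was 0.11. KRT18 (chromosome 12, 52948871 to 52952901, plus strand) had 0 fragments in 5 libraries and 2 in shACAT2-3. A count of 0 allows up to 0.0541 to 0.0621 FPKM for KRT18, depending on the library.

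The values of KRT8 and KRT18 carry more doubt than those of KRT4. Their exons share 525 bases on opposite strands, and the strand setting of the counting is not given in the sources used here. Of the 31-base words of their transcripts, 74.7% were unique to KRT8 and 65.0% to KRT18, and 50 pseudogenes of KRT8 and 67 of KRT18 are in the table. The pseudogenes of KRT8 together held 111 to 194 fragments per library, more than the 43 to 82 fragments of KRT8 itself. KRT8P12 alone had 3.16, 2.41 and 2.44 FPKM in the shNC libraries, and 2.28, 2.26 and 2.28 FPKM in the shACAT2 libraries. The pseudogenes of KRT18 held 28 to 128 fragments per library, the highest number in shACAT2-3. How fragments matching several of these copies were counted is not given either, so the level of both genes is uncertain.

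The other simple keratins were near 0. KRT7, a keratin of ducts and glands, had 0 fragments in each shNC library and 2, 2 and 4 fragments in the shACAT2 libraries. KRT19, the smallest keratin of simple epithelia, had 0 fragments in each shNC library and 2, 0 and 3 fragments in the shACAT2 libraries. KRT20, a keratin of gastric surface and intestinal cells, had 2 fragments in shNC-3, 4 in shACAT2-3 and 0 in the others. None of the 5 simple keratins reached the filter.

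By level per length, KRT10 was the highest keratin of both groups and KRT4 came next. The values of these genes did not overlap within either group. In shNC cells, KRT8 (0.385 to 0.608 FPKM) and KRT80 (0.333 to 0.496 FPKM) overlapped. In shACAT2 cells KRT80 (0.939 to 1.32 FPKM) lay above KRT8 (0.516 to 0.785 FPKM) in each library. No other keratin exceeded 0.264 FPKM in any library, or 0.147 FPKM outside shACAT2-3. KRT17, a keratin of basal and stressed epidermal cells, had 19 fragments in all, 10 of them in shNC cells and 9 in shACAT2 cells. KRT2, a keratin of the upper epidermis, had 10 fragments, all in shACAT2-3.

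The remaining 49 genes had under 10 fragments each over all libraries. KRT6C, KRT9, KRT27 and KRT222 had 0 fragments throughout. Of the 55 keratins, 34 had no fragment outside shACAT2-3, and 30 of these 34 had fragments in shACAT2-3. The number of keratins with a fragment was 6, 9 and 12 in the shNC libraries, 11 and 11 in shACAT2-1 and shACAT2-2, and 50 in shACAT2-3. All 17 hair keratins had a fragment in shACAT2-3, against 0 to 3 of them in any other library. The 34 keratins together had 111 fragments over 80.6 kb of exons in shACAT2-3, which is 1.38 per kilobase, where silent autosomal genes of that library had 0.778 per kilobase. This library also held the fragments in genes that were silent elsewhere, and the part of that background in the keratin counts was not tested.

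**Figure D2:**
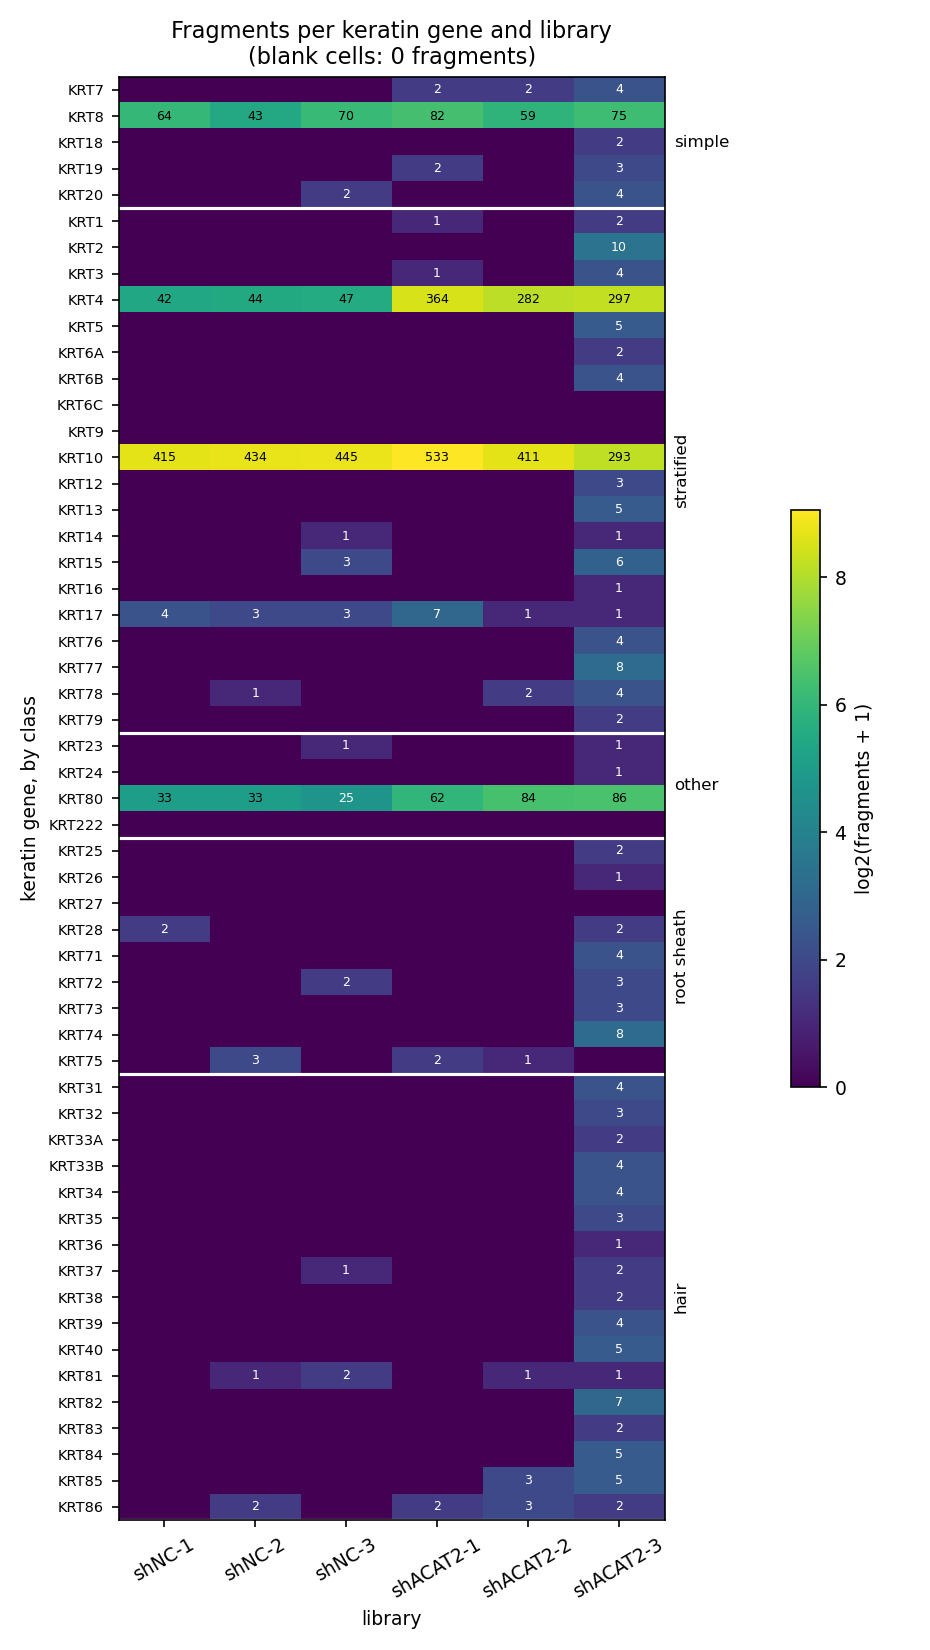
Fragments of each of the 55 keratin genes (rows, grouped by class) in the 6 libraries (columns), with the number printed in each cell that is not 0 and the colour giving log2(fragments + 1). KRT10, KRT4, KRT8, KRT80 and, at 1 to 7 fragments, KRT17 hold fragments in every library, while low counts fill nearly all rows of shACAT2-3.

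The sum of the simple keratins was 0.608, 0.385 and 0.653 FPKM in the shNC libraries, and 0.873, 0.545 and 1.06 FPKM in the shACAT2 libraries. The groups overlapped, at 0.549 ± 0.143 and 0.827 ± 0.262 FPKM (SD, n = 3), although the shACAT2 library was higher in 3 of 3 pairs with the same replicate number. The pairing of numbers 2 and 3 is uncertain, and the sum in shACAT2-2 (0.545 FPKM) lay below that in shNC-3 (0.653 FPKM). Without shACAT2-3 the mean of the shACAT2 libraries was 0.709 FPKM. The sum of the stratified keratins was 13.6, 13.4 and 13.0 FPKM in the shNC libraries, and 23.8, 16.7 and 16.4 FPKM in the shACAT2 libraries. These groups did not overlap, at 13.3 ± 0.305 and 19.0 ± 4.18 FPKM (20.3 FPKM without shACAT2-3), so stratified keratin RNA was far above simple keratin RNA in both groups. The stratified sum rose by 5.41 FPKM more than the simple sum, and by 3.02 FPKM more without shACAT2-1, the library with the highest KRT10. Without KRT4, which was singled out for its rise, the stratified sum was 12.5 ± 0.303 FPKM in shNC cells and 12.9 ± 3.25 FPKM in shACAT2 cells, the groups overlapped, and the lead over the simple sum changed by 0.12 FPKM. The rise of the class was thus that of KRT4, while most of its level came from KRT10. No test was made on the sums, since their members were chosen with results known.

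Type II keratins had a higher sum in shACAT2 cells, with KRT4, which was singled out for its rise, as their largest member. Their sum was 1.93, 1.85 and 1.86 FPKM in the shNC libraries, and 9.16, 7.07 and 10.2 FPKM in the shACAT2 libraries. The mean of this sum went from 1.88 FPKM in shNC cells to 8.81 FPKM in shACAT2 cells. KRT4 alone went from 0.824 to 6.11 FPKM. The type II sum, its ratio to type I and the share of each keratin thus carried the rise of KRT4, but not that rise alone. The mean of KRT80, also of type II, went from 0.432 to 1.14 FPKM, and many type II keratins had fragments only in shACAT2-3. No type II sum without KRT4 was made. The type I sum, mostly KRT10, was 12.5 ± 0.272 FPKM in shNC cells and 13.1 ± 3.00 FPKM in shACAT2 cells, and the groups overlapped. The ratio of type I to type II FPKM was 6.63, 6.76 and 6.59 in the shNC libraries, and 1.81, 1.64 and 1.10 in the shACAT2 libraries. Type I was thus above type II in every library, by less in the shACAT2 libraries. Without shACAT2-3 the mean of the shACAT2 libraries was 14.1 FPKM for type I and 8.11 FPKM for type II, and their mean ratio was 1.72. KRT10 made up 85.9% ± 0.751 of all keratin FPKM in shNC cells and 56.0% ± 11.8 in shACAT2 cells (SD, n = 3), while KRT4 made up 5.71% ± 0.104 and 27.8% ± 0.305. Without shACAT2-3 the means of the shACAT2 libraries were 62.8% for KRT10 and 27.8% for KRT4. KRT10, KRT4, KRT80 and KRT8 together made up 97.6% to 98.9% of the sum, except in shACAT2-3, where they made up 79.8%.

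**Figure D3:**
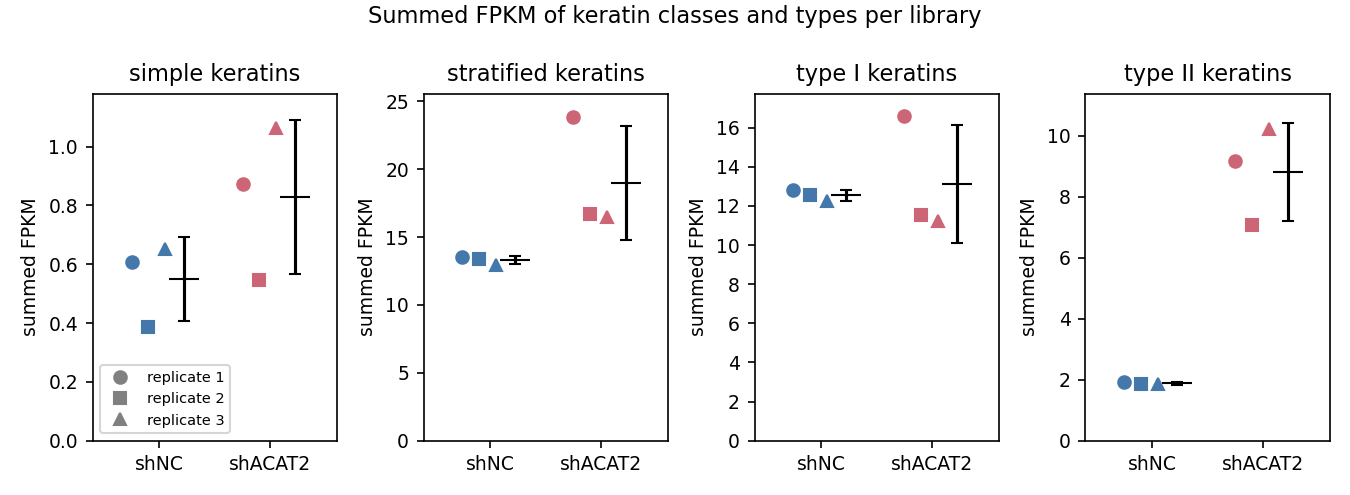
Summed FPKM of the simple, stratified, type I and type II keratins (y axis, from 0, a scale for each panel) in shNC and shACAT2 cells (x axis), with each library as a point and a line with bars for the mean and SD of 3 libraries. The groups are apart for the stratified keratins and for the type II keratins (1.85 to 1.93 against 7.07 to 10.2 FPKM), and overlap for the simple and type I keratins.

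Genes that act with keratins were read from 5 lists, beside a median log2 difference of 0.02 over all genes tested, of which 3.3% were called higher and 1.81% lower. In either direction, the main test called 706 of 13832 genes. The replicate block called 1727 of 13832, the minimum of 10 fragments 1034 of 14394, and limma-voom 1006 of 13832. DSP, PKP2, SYNC, TP73 and FBF1 passed the filter through only 1 group. A gene that does so had to differ, so the counts describe the tested genes and not the lists. Keratin filaments end at desmosomes and hemidesmosomes, where plakins such as DSP and PLEC hold them. Of 21 such anchors, 10 were tested, and 1 was lower, 0 were higher and 9 did not pass (median −0.19). DSP, the plakin of desmosomes, had 3.59, 4.71 and 4.63 FPKM in the shNC libraries, and 0.659, 1.13 and 0.951 FPKM in the shACAT2 libraries. All shACAT2 values were below all shNC values, and DSP fell by 1.47 on the log2 scale (standard error 0.14, limma adjusted p = 0.0052). The desmosomal cadherin DSG2 had a log2 difference of −0.77 (adjusted p = 0.104) and was called lower with the replicate number as a block. The plakophilin PKP2, which joins the cadherins to DSP, had a log2 difference of −0.46 (adjusted p = 0.129), with no overlap between the groups. It was called lower with a minimum of 10 fragments in every library (adjusted p = 0.039) and with limma-voom (0.033). PLEC, which links intermediate filaments to hemidesmosomes and other structures, had a log2 difference of −0.02 (adjusted p = 0.942), and its sign turned in 3 alternatives, up to 0.12 without shACAT2-3.

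Of 16 other intermediate filament genes, 9 were tested, and 1 was higher (SYNC), 0 were lower and 8 did not pass (median 0.25). VIM had 292, 246 and 251 FPKM in the shNC libraries, and 461, 340 and 417 FPKM in the shACAT2 libraries. The groups did not overlap, but the log2 difference of 0.62 (standard error 0.15) missed the threshold (limma adjusted p = 0.063). With the replicate number as a block it passed (adjusted p = 0.027), as did PRPH, the filament protein of peripheral neurons. The block called 1727 of all 13832 genes tested. VIM shares 641 exon bases with VIM-AS1, and PRPH shares 2445 of its 4353 exon bases with AC125611.4, both on the opposite strand. In every library VIM was far above the sum of all keratins, which was 14.4 ± 0.308 FPKM in shNC cells and 21.9 ± 3.58 FPKM in shACAT2 cells (SD, n = 3). Without shACAT2-3 the mean of this sum in shACAT2 cells was 22.2 FPKM.

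SYNC, a filament protein of muscle, had a log2 difference of 0.87 (limma adjusted p = 0.038). Its call was lost without shNC-1, shNC-2, shNC-3, shACAT2-1 or shACAT2-2 (adjusted p = 0.070 to 0.158), and 1706 of its 3487 exon bases are shared with RBBP4 on the opposite strand. LMNA, which makes the A-type lamins of the nucleus, had a log2 difference of 0.62 (adjusted p = 0.186), and it was called without shACAT2-3 (0.87, adjusted p = 0.044).

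Of 18 transcription factors of stratified epithelium, 6 were tested, and 1 was higher (KLF5), 0 were lower and 5 did not pass (median −0.05). KLF5, a factor of basal epidermal and gut cells, had 10.7, 12.3 and 11.5 FPKM in the shNC libraries, and 25.7, 29.2 and 30.4 FPKM in the shACAT2 libraries. Every shACAT2 value was above every shNC value, with a log2 difference of 1.24 (standard error 0.11, limma adjusted p = 0.0040). TP73, of the same family as TP63, had a log2 difference of −0.47 (adjusted p = 0.103), with all shACAT2 values (0.522 to 0.676 FPKM) below all shNC values (1.09 to 1.43 FPKM). It was called lower with a minimum of 10 fragments in every library (adjusted p = 0.018) and with limma-voom (0.016). TP63, which marks basal cells of stratified epithelium, was under the filter of the main test. It had 0.272, 0.422 and 0.389 FPKM in the shNC libraries and 0.115, 0.250 and 0.241 FPKM in the shACAT2 libraries, which were all lower. TP63 was not called with a minimum of 10 fragments in every library (limma adjusted p = 0.164) or without a filter (0.669).

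Cornified envelope genes build the protein shell of dying epidermal cells. Of 20 listed genes, 2 were tested, and 1 was higher (TGM1), 0 were lower and 1 did not pass, while 6 were at 0 in all libraries. TGM1, the transglutaminase that cross-links the shell, had 1.64, 1.19 and 1.29 FPKM in the shNC libraries, and 7.32, 5.96 and 5.62 FPKM in the shACAT2 libraries. All shACAT2 values were higher, with a log2 difference of 1.62 (standard error 0.13, limma adjusted p = 0.0035). IVL, a precursor of the shell, had at most 0.031 FPKM. CSTA, a protease inhibitor of the shell, was under the filter, with means of 0.194 FPKM in shNC cells and 0.0774 FPKM in shACAT2 cells and no overlap between the groups. These means rest on only 4, 4 and 5 fragments in the shNC libraries and 2, 2 and 1 in the shACAT2 libraries. CSTA was not called without a filter (limma adjusted p = 0.452).

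Of 19 genes of keratin binding and turnover, 13 were tested, and 2 were higher, 0 were lower and 11 did not pass (median 0.05). HSPB8, a small heat shock protein, had a mean of 8.04 ± 0.448 FPKM in shNC cells and 16.8 ± 1.59 FPKM in shACAT2 cells (SD, n = 3; log2 difference 0.98, limma adjusted p = 0.0063). Its call was lost without shNC-2 (adjusted p = 0.050) and without shNC-3 (0.056). DNAJB6, a chaperone that binds KRT18, had means of 5.75 ± 0.421 and 10.2 ± 0.866 FPKM (log2 difference 0.73, adjusted p = 0.014). Its call was lost without any 1 of the shNC libraries (adjusted p = 0.053 to 0.098). Both genes had no overlap between the groups.

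**Figure D4:**
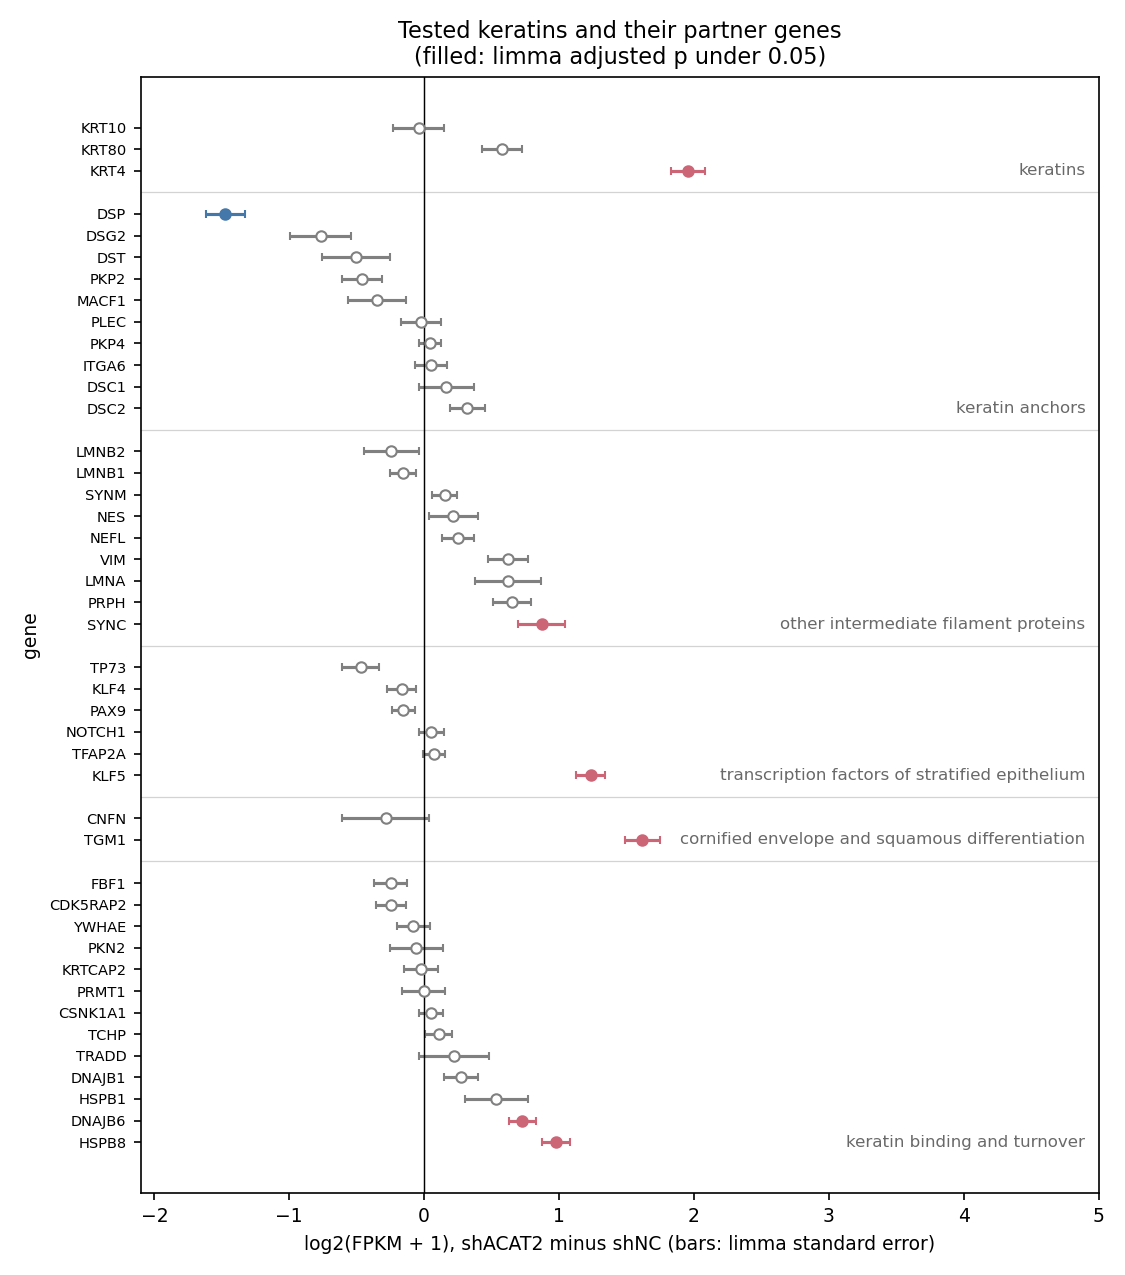
Difference in log2(FPKM + 1), shACAT2 minus shNC (x axis), for the tested keratins and the tested genes of the 5 lists (rows), with bars for the limma standard error and filled points for an adjusted p under 0.05. KRT4, TGM1, KLF5, HSPB8, SYNC and DNAJB6 are filled on the higher side and DSP on the lower side.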

How the data were processed

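RNA-seq libraries of HGC-27 cells, 3 shNC and 3 shACAT2, were grouped by their titles. The table deposited by the authors holds the FPKM of 58735 genes, and 0 of its sample columns went unused. The submitters' processing notes name HISAT2 2.0.5, featureCounts 1.5.0-p3, DESeq2 1.20.0 and hg38, without their roles, and the strand setting and the treatment of fragments with several matches are not given in the sources used here. All 55 keratins had the coordinates and exon length of GENCODE release 29. Fragments were read back from FPKM and gene length, and 100% of the values were whole to within 0.01 fragments.

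The keratins, their classes and the lists of partner and marker genes were chosen with earlier results of these data known, and KRT4 was named for its rise. Every keratin was accounted for. Those past the filter were given in full, and the others by name from 10 fragments in all or as known partners or neighbours, the latter chosen after their values were seen. Of the lists, genes called (at most 6 a list) and DSP, PLEC, VIM and LMNA were named. DSG2, DSC1, DSC2, DSC3, DSG1, DSG4, PKP2, PRPH, TP63, TP73, CSTA, IVL, CDH1, CLDN4, CLDN7, ESRP1 and TGM3 were added after their values were seen.

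The test was limma 3.58.1 with a trend, in R 4.3.3, on values of log2(FPKM + 1). It covered 13832 genes whose mean reached 1 FPKM in shNC or shACAT2 cells, with Benjamini-Hochberg adjustment over all of them. The procedure was run on simulated counts with a fixed spread and without the background of shACAT2-3. That run cannot show how the test behaves with the uneven libraries of these data. Sums and sequences were handled in Python 3.11.15. A gene at 0 was given a limit of 3 fragments per library. Poisson intervals (95%) and limits cover counting error only. Words of 31 bases were compared between GENCODE transcripts.

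Same-numbered libraries deviated together from their group means (correlations 0.445, 0.126 and 0.171 for numbers 1, 2 and 3). The numbers were used to pair them. All 3 were above 0.1, but shNC-3 with shACAT2-2 reached 0.141 and shNC-2 with shACAT2-3 reached 0.198. Among the shNC libraries, the same-numbered one correlated best with its shACAT2 library only for number 1. The pairing of numbers 2 and 3 is therefore uncertain. The libraries shNC-2 and shNC-3 differed by a chi-square per gene of 1.77, while other pairs of the same group gave 14.2 to 54.7, and were kept as 2 samples. Alternatives were other filters, a pseudocount of 0.1, upper-quartile scaling, scaling to fragments on genes, a replicate block, limma-voom, each library left out, shNC-2 averaged with shNC-3, and shACAT2-3 with its background rate taken off. The block with a minimum of 10 fragments, for KRT8, and the stratified sum without KRT4 were added after seeing the data.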

Additional observations from a re-analysis of the deposited data

How the results depend on the processing

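KRT4 stayed called as higher in all 15 alternatives, with a log2 difference of 1.84 to 2.80 and a limma adjusted p of 5.2e-04 to 0.028. With each library left out it was 1.84 to 2.06. Of the keratins, 1 was called higher with each library left out, and 2 (with KRT80) when at least 10 fragments in every library were required and with limma-voom. Past the thresholds on log2 difference and unadjusted p there were 2 with a pseudocount of 0.1 FPKM and with limma-voom. No keratin was called lower by limma or limma-voom in any alternative (0), and at unadjusted p only KRT4 and KRT80 were under 0.05. KRT8 stayed between 0.06 and 0.31. The lead of the stratified over the simple sum changed by 3.02 to 6.80 FPKM, and by 0.12 FPKM without KRT4, an alternative chosen after seeing the data.

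Over all genes, 706 were called, 209 without a filter, 1727 with the replicate block, 63 to 862 when a library was dropped and 83 when shNC-2 was averaged with shNC-3. The block left the calls of the keratins as they were (KRT4 adjusted p = 0.0097). KRT10 ranged from −0.25 to 0.14 with a library left out. It turned to 0.0020 with upper-quartile scaling and to 0.14 without shACAT2-3. PLEC ranged from −0.10 to 0.12 with a library left out, and turned to 0.022 with upper-quartile scaling, 0.034 without shNC-1 and 0.12 without shACAT2-3. The cause was not tested. SYNC, HSPB8 and DNAJB6 also lost their calls when these were averaged (adjusted p = 0.143, 0.051 and 0.089), and SYNC without a filter (0.117). No difference was given for KRT18, at 0 in 5 libraries, and KRT8, under the filter, was run with the block only under the minimum of 10 fragments, and not with limma-voom. Most keratins lay below the depth at which a difference could be seen.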

Other observations

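CDH1, the cadherin of epithelial junctions, is given here because of its values and lay under the filter. The shNC libraries held 0.222, 0.120 and 0.141 FPKM of it, and the shACAT2 libraries held 0.608, 0.828 and 1.15 FPKM. The groups did not overlap. CDH1 was called higher when a minimum of 10 fragments in every library replaced the filter (limma adjusted p = 0.0099), but not without a filter (0.167). Those settings called 1034 of 14394 and 209 of 41161 genes. CLDN7 had means of 1.01 and 0.731 FPKM, CLDN4 of 0.483 and 0.481 FPKM and ESRP1 of 0.138 and 0.143 FPKM in shNC and shACAT2 cells, each with overlap between the groups, and EPCAM and GRHL2 stayed near 0. The CDH1 exons share 347 bases with an antisense gene. TGM3, a transglutaminase of the upper epidermis and hair, also lay under the filter. It had 2, 0 and 3 fragments in the shNC libraries, and 12 fragments in each shACAT2 library.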
